A study of Pseudotsuga menziesii with 10 samples.

Results

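The step from 22 to 30 June 2011 in the megagametophyte of Douglas-fir (Pseudotsuga menziesii) was examined in 4 of the 10 RNA sequencing libraries of the study. These were the megagametophyte libraries of those dates. The 2 libraries of 30 June came from pollinated and from unpollinated cones, and so did the 2 of 22 June. All cones grew on orchard ramets of a single clone, genotype 970, and had been bagged before pollen was shed. Pollinated cones received a mix of pollen, and unpollinated cones received none. Each library was made from a pool of 200 to 400 dissected megagametophytes, so it averages over many seeds of 1 genotype and shows nothing about variation between trees. Per the labels, 30 June coincided with embryogenesis and 22 June with fertilization, and early abortion without pollen was also among the stages sampled. The labels describe the pollinated samples as megagametophyte and embryo. RNA of the embryo and RNA of the megagametophyte cannot be told apart in them.

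The megagametophyte is the haploid female gametophyte of a conifer. It bears the egg cells, surrounds the embryo after fertilization and later becomes the nutritive tissue of the seed. It forms before fertilization, and in this study it was also collected from cones that received no pollen.

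Levels are given in FPKM, fragment counts normalised to contig length and sequencing depth, for 54889 assembled transcripts (contigs). Differences are given on the log2(FPKM + 1) scale. On that scale a difference of 1 is a doubling of FPKM + 1, so the change of low contigs is understated. The table pairs no gene names with the contig identifiers. Contigs are therefore described by level, course and tissue, no pathway or marker gene was examined, and the labelled tissue was not checked against marker genes. In the 4 libraries, between 8468 and 8738 contigs stood at 10 FPKM or more, and the sum over all contigs was 466481 to 500987 FPKM. The number of reads behind each value is unknown, and with 1 library per date and pollination state no level has a replicate error.

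Many abundant megagametophyte transcripts of 22 June were nearly absent on 30 June, in pollinated and in unpollinated pools alike. Few transcripts were gained at such levels. To describe this by size, a contig was counted when it differed 4-fold or more in the same direction in both pollination states and reached 10 FPKM on at least 1 of the dates in each state. Of 9283 contigs at that level, 557 (6.00%) were lower on 30 June and 97 (1.04%) were higher. At the lower level of 1 FPKM or more, pollinated megagametophytes held 26120 contigs on 30 June against 22662 on 22 June. Unpollinated ones held 23178 against 22934. The median change of the 557 contigs was -5.56 log2 units in pollinated and -3.83 in unpollinated megagametophytes. For the 97 contigs it was 3.65 log2 units in pollinated and 2.80 in unpollinated megagametophytes. Most contigs moved little, and 6723 of the 9283 (72.4%) changed less than 2-fold in both states. The median change over all 9283 was 0.17 in pollinated and 0.18 in unpollinated megagametophytes. Over contigs that reached 1 FPKM in each of the 4 libraries, the median was 0.13 log2 units higher on 30 June than on 22 June in each state, and with that shift removed the counts were 591 lower and 79 higher. Bulk RNA cannot tell fewer cells of a kind from less RNA per cell.

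No contig passed the test of date. In limma, with pollination state as the pair and 1 residual degree of freedom, 0 of 24696 contigs (0%) had an adjusted p under 0.05. An unadjusted p under 0.05 was found for 5023, of which 2678 were higher and 2345 lower on 30 June. If no contig had changed, 1235 would be expected at that limit. Contigs are no independent replicates, and the excess was not tested. The lowest adjusted p was 0.0714. All 557 lower and all 97 higher contigs had an unadjusted p under 0.05, which the size rule favours, since it asks for a large change in both states. The error in this test combines the disagreement between the states in the size of a change with an error estimated over all contigs tested. A contig that moved much further in one state than in the other still has a large error. Without pollination state in the model, limma gave 553 of the 24696 contigs higher and 1019 lower. These held 525 of the 557 and 86 of the 97 contigs, which made up 51.5% of the lower and 15.6% of the higher calls. Both sets were chosen for a large change in the same libraries, so the overlap is no separate evidence. With the error taken from all 8 megagametophyte libraries limma gave 1054 higher and 1464 lower. With only 2 pairs, the smallest exact permutation p for any single contig is 0.5, so no single contig could reach 0.05 in such a test. Because no contig passed, the words higher and lower below describe sizes in these libraries.

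**Figure D1:**
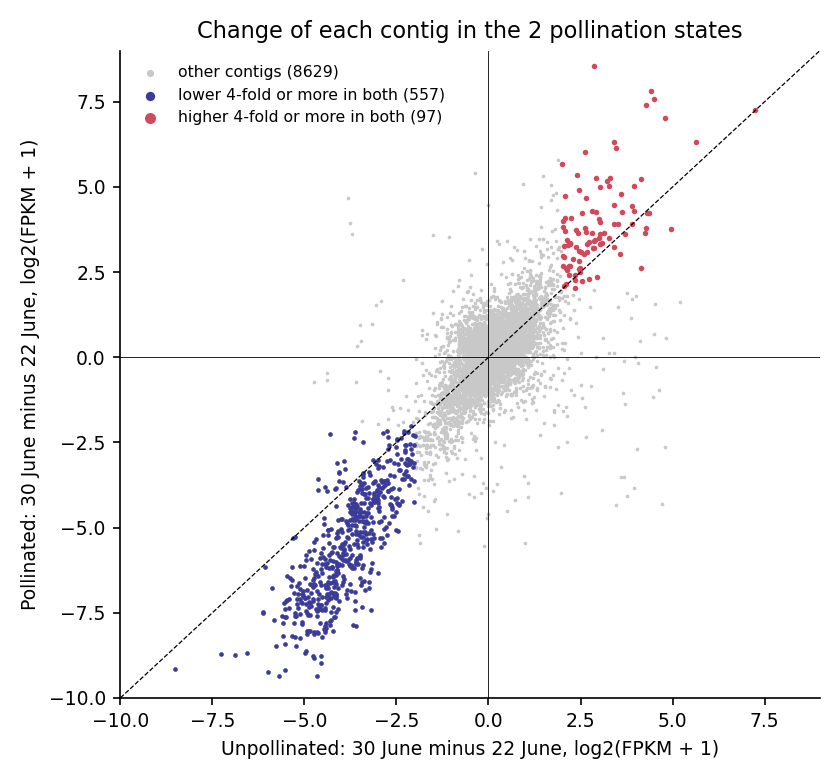
Change from 22 to 30 June of 9283 contigs, in log2(FPKM + 1) units, in pollinated (vertical axis) against unpollinated megagametophytes (horizontal axis). Each point is a contig, and the dashed line marks equal change. The 557 contigs 4-fold or more lower in both states (blue) lie mostly under the line, and 83 of the 97 higher contigs (red) lie above it.

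The contig with the largest fitted difference downward was GAZW02078894. It was measured at 0.0353 FPKM in the pollinated and 0.110 FPKM in the unpollinated library of 30 June, against 583.1 FPKM in the pollinated and 409.1 FPKM in the unpollinated library of 22 June. Both libraries of 30 June were thus near the lowest values the table holds, and both of 22 June were among the abundant transcripts. The limma difference was -8.84 ± 0.25 (SE), with adjusted p 0.0714. GAZW02012967 was measured at 0.537 FPKM in the pollinated and 0.919 FPKM in the unpollinated library of 30 June, against 642.6 FPKM in the pollinated and 293.1 FPKM in the unpollinated library of 22 June. Its limma difference was -7.98 ± 0.42 (SE), with adjusted p 0.0714. The dates did not overlap for either contig, which their choice by size favours. Neither contig was above 2.14 FPKM in scales or bracts, the diploid cone tissues collected on 26 May.

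In the other direction, GAZW02032336 was measured at 176.3 FPKM in the pollinated and 157.7 FPKM in the unpollinated library of 30 June, against 0.149 FPKM in the pollinated and 0.0425 FPKM in the unpollinated library of 22 June. The states hardly differed, and the limma difference was 7.26 ± 0.22 (SE), with adjusted p 0.0714. This contig was at 0.0425 FPKM in both scales and bracts. GAZW02024154 was measured at 351.1 FPKM in the pollinated and 87.7 FPKM in the unpollinated library of 30 June, against 0.569 FPKM in the pollinated and 3.14 FPKM in the unpollinated library of 22 June. It was higher on 30 June in both states, further so with pollen, and the limma difference of 6.12 ± 0.90 (SE) had an adjusted p of 0.0859. These 4 contigs passed in limma without pollination state in the model (adjusted p 0.00714 to 0.0302) and with the error of all 8 megagametophyte libraries (adjusted p 0.000498 to 0.00917). The first of these fits treats the states as replicates of a date. The 4 contigs were picked for large differences in the same libraries, so their passing is no separate evidence. Since the naming rule asked for contigs that passed the paired test, they were named instead as those with the largest fitted differences among the 557 and the 97, after their values had been seen.

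The share of contigs that were lower on 30 June rose with level, though the largest number of them, 201, stood at 30 to 100 FPKM. Contigs were grouped by their mean level on whichever date had the higher mean, so that losses and gains were treated alike. Of 5099 contigs under 30 FPKM, 139 (2.73%) were lower and 48 (0.941%) higher on 30 June. Of 3138 contigs at 30 to 100 FPKM, 201 (6.41%) were lower and 25 (0.797%) higher. The share that was lower was 18.4% (154 of 835) at 100 to 300 FPKM and 29.9% (63 of 211) at 300 FPKM or more. Higher contigs made up 1.8% and 4.27% of these classes, 15 and 9 contigs, so their share too was largest at 300 FPKM or more.

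**Figure D2:**
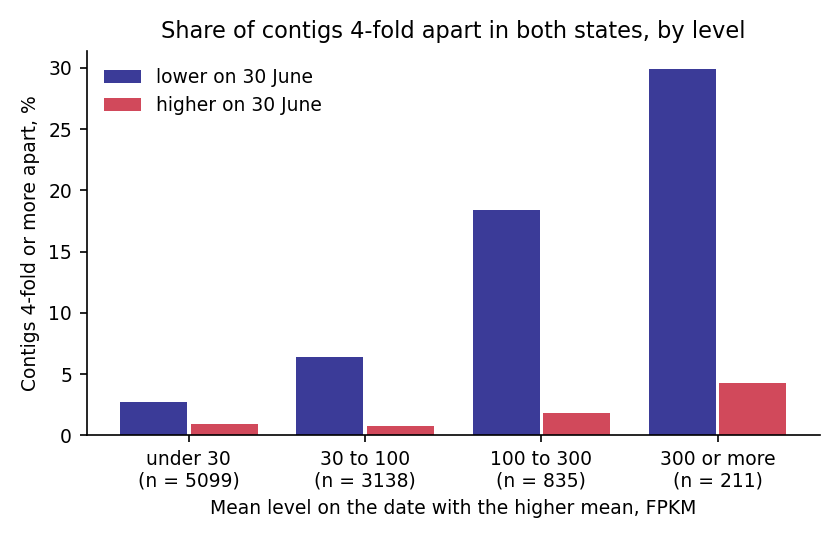
Percentage of contigs 4-fold or more lower (blue) and higher (red) on 30 June in both pollination states, by the mean FPKM of the date with the higher mean; n is the number of contigs in each class. The share that was lower is 2.73% under 30 FPKM and 29.9% at 300 FPKM or more. The share that was higher is 0.941% and 4.27% in the same classes.

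The share of the transcript pool held by these contigs describes how much of the pool they made up. Its direction between the dates was fixed by their choice in the same libraries, so only its size is informative. The 557 contigs held 0.274% of all FPKM in pollinated and 0.746% in unpollinated megagametophytes on 30 June, against 17.8% and 12.8% in pollinated and unpollinated ones on 22 June. The 97 higher contigs held 2.52% in pollinated and 1.38% in unpollinated megagametophytes on 30 June, against 0.133% and 0.190% in pollinated and unpollinated ones on 22 June. The share gained by the 97 contigs was a small part of the share lost by the 557. The pool was also less concentrated: 50% of all FPKM lay in 1606 contigs in pollinated and 1535 in unpollinated megagametophytes on 30 June, against 1310 and 1388 contigs in pollinated and unpollinated ones on 22 June. FPKM are shares of a library, so a loss of abundant transcripts raises the values of all others, and the part of this in the median changes of 0.17 and 0.18 was not tested.

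**Figure D3:**
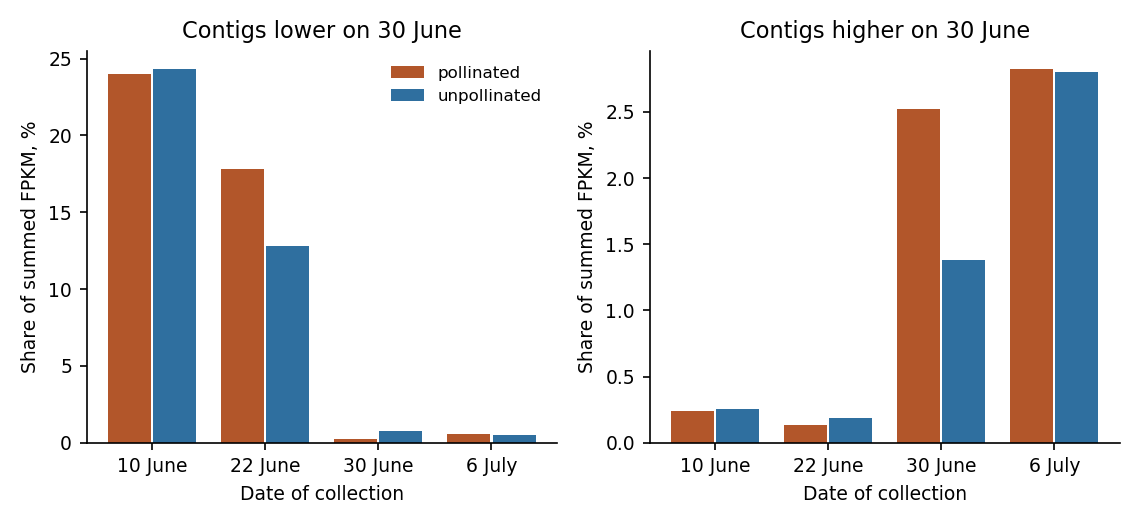
Share of all FPKM (percent) held by the 557 contigs lower on 30 June (left) and the 97 contigs higher on 30 June (right), in each megagametophyte library by date; each bar is 1 library, and the panels have different scales. The lower contigs held 0.274% and 0.746% on 30 June, against 17.8% and 12.8% on 22 June, and the higher contigs held 2.52% and 1.38% on 30 June.

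A stricter view counted contigs at 10 FPKM or more in both states on one date and under 1 FPKM in both on the other. There were 150 contigs lost in this sense, of 7820 at 10 FPKM or more in both states on 22 June (1.92%). Only 17 were gained, of 7774 at that level in both states on 30 June (0.219%). The median level of the 150 contigs was 0.106 FPKM in the pollinated and 0.424 FPKM in the unpollinated library of 30 June, against 39.5 FPKM in the pollinated and 19.8 FPKM in the unpollinated library of 22 June. On 6 July, a library date that took no part in this choice, 141 of the 150 (94.0%) were under 1 FPKM in both states, against 4.6% of the 9283 contigs. The 9283 are not a like base, since the 150 were chosen for being under 1 FPKM on 30 June. Of the 9283, 421 were so in the pollinated and 167 in the unpollinated library of that date. The 17 gained contigs were modest in level, with a median of 15.3 FPKM in the pollinated and 14.7 FPKM in the unpollinated library of 30 June, and 9 of them (52.9%) were at 10 FPKM or more in both states on 6 July.

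The spread of the changes was wider in pollinated than in unpollinated megagametophytes, and many small changes differed in sign. Of the 9283 contigs, 4476 were higher on 30 June in both states by any amount and 2355 were lower in both, while 2335 had opposite signs and 117 had no change in a state. Of the 24696 contigs tested, 7783 had opposite signs. Within pollinated megagametophytes alone, 1036 of 10472 contigs (9.89%) were 4-fold or more lower on 30 June and 415 (3.96%) higher. Within unpollinated ones the counts were 625 of 9958 (6.28%) lower and 242 (2.43%) higher. Over the 9283 contigs the changes had a standard deviation of 1.69 log2 units in pollinated and 1.23 in unpollinated megagametophytes, and they correlated across contigs at 0.850. Over the 24696 contigs, which include lower levels, this correlation was 0.645. Both values are across contigs, which are no independent replicates, and are given without a p.

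Among the 557 lower contigs, the drop was larger in the pollinated pair for 524 (94.1%), where 58.5% of all 9283 contigs had the larger change in the pollinated pair. Both dates contributed. On 30 June the pollinated library was lower than the unpollinated one for 493 of the 557, and on 22 June it was higher for 504. Both held for 452 contigs (81.1%), against 32.9% of all 9283. The median level of the 557 was 0.495 FPKM in the pollinated and 2.34 FPKM in the unpollinated library of 30 June, against 82.3 FPKM in the pollinated and 49.9 FPKM in the unpollinated library of 22 June. The 97 higher contigs mirrored this. The gain was larger in the pollinated pair for 83, and 50 stood lower in the pollinated than in the unpollinated library on 22 June and higher on 30 June (51.5%, against 24.5% of all 9283). Across the 9283 contigs, the pollinated minus unpollinated difference on 30 June correlated at -0.305 with that on 22 June, and over the 24696 contigs at -0.13. These differences share no library, but the rule of 10 FPKM in each state favours a negative value. A state that is low on one date must reach that level on the other. Each state has a single pair of libraries, so the difference between the states in the size of the change could not be tested.

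Some contigs moved 4-fold or more in one state and less than 1.5-fold in the other. In pollinated megagametophytes alone, 74 contigs were higher (0.707% of 10472) and 56 lower (0.535%) on 30 June. In unpollinated ones alone, 49 were higher (0.492% of 9958) and 16 lower (0.161%). These counts grow with the limits chosen: with a minimum level of 1 FPKM they were 282, 212, 143 and 98 in the same order. That minimum also admits more contigs, and their shares were not computed.

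GAZW02103268 had the largest gain in the pollinated pair alone. It stood at 106.6 FPKM on 30 June against 0.0353 FPKM on 22 June in pollinated megagametophytes, and at 0.310 against 0.0425 FPKM in unpollinated ones. On 6 July it reached 480.0 FPKM with and 244.6 FPKM without pollen, so unpollinated megagametophytes showed it as well by then. The 74 contigs as a group had a median of 16.3 FPKM in the pollinated and 4.88 FPKM in the unpollinated library of 30 June, and of 18.6 and 8.10 FPKM in pollinated and unpollinated ones on 6 July. Unpollinated megagametophytes held 34 of the 74 at 10 FPKM or more on 6 July and 15 on 30 June.

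GAZW02022549 had the largest drop in the pollinated pair alone, standing at 0.0425 FPKM on 30 June against 47.2 FPKM on 22 June in pollinated megagametophytes, and at 27.1 against 29.3 FPKM in unpollinated ones. It was back at 16.6 FPKM in pollinated megagametophytes on 6 July, so the low value was that of 1 library. GAZW02021255 had the largest gain in the unpollinated pair alone, at 57.9 FPKM on 30 June against 0.0497 FPKM on 22 June, while pollinated megagametophytes stood at 1.22 against 0.670 FPKM. In unpollinated megagametophytes it was at 0.157 FPKM on 6 July, so the high value too was that of 1 library. GAZW02068511 had the largest drop in the unpollinated pair alone, at 0.366 FPKM on 30 June against 42.4 FPKM on 22 June. In pollinated megagametophytes it was low throughout, at 0.613 against 0.717 FPKM on these dates and 1.204 FPKM on 10 June, while unpollinated ones had started from 108.1 FPKM. None of these 4 contigs passed in the paired limma fit (adjusted p 0.333 to 0.372).

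The libraries outside the comparison show where these contigs belong in the longer course. Of the 557 lower contigs, 515 (92.5%) were at 10 FPKM or more in both states on 10 June, against 6521 of all 9283 (70.2%). The 9283 are not a like base for this. By the size rule all 557 reached 10 FPKM in both libraries of 22 June. Of the 9283, 8167 did so in the pollinated and 8241 in the unpollinated library. On 6 July, 405 of the 557 (72.7%) were under 1 FPKM in both states, against 427 of all 9283 (4.6%), which include the 405. The base is unlike here too. On 30 June, 387 of the 557 were already under 1 FPKM in the pollinated and 156 in the unpollinated library, against 421 and 167 of the 9283. With pollen, the median of the 557 was 124 FPKM at the first date, followed by 82.3, 0.495 and 0.141 FPKM at the later dates. Without pollen it was 118, 49.9, 2.34 and 0.347 FPKM. From 10 to 22 June the median change of these contigs was -0.39 log2 units in pollinated and -0.94 in unpollinated megagametophytes. From 30 June to 6 July it was -0.25 in pollinated and again -0.94 in unpollinated ones. These neighbouring steps share a library with the step of 22 to 30 June. The change from 10 June to 6 July shares none, and over it 526 of the 557 (94.4%) were lower on 6 July in both states, against 3050 of all 9283 (32.9%). On that interval the median change was -6.41 log2 units in pollinated and -6.21 in unpollinated megagametophytes, against 0.25 in each state over all 9283.

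A minority of the lower contigs took another course. There were 42 that did not reach 10 FPKM in both states on 10 June. Over the 4 dates in order, their median was 5.73, 25.7, 0.952 and 1.63 FPKM with pollen and 5.02, 23.9, 1.59 and 2.95 FPKM without, so as a group they were highest on 22 June. Another 41 were again at 10 FPKM or more in both states on 6 July. From 22 June onward, their median was 113, 9.48 and 32.1 FPKM with pollen and 71.0, 9.93 and 24.5 FPKM without, a dip on 30 June.

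As a group, the 97 higher contigs stood about as high on 6 July as on 30 June. With pollen, their median over the 4 dates in order was 2.01, 1.99, 32.1 and 29.7 FPKM. Without pollen it was 1.23, 3.17, 29.5 and 32.6 FPKM. On 6 July, 78 of the 97 (80.4%) were at 10 FPKM or more in both states, near the 75.7% of all 9283. Of the 97 contigs, 88 (90.7%) were higher on 6 July than on 10 June in both states, against 4940 of all 9283 (53.2%). Only 8 were under 10 FPKM in both states on 6 July.

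**Figure D4:**
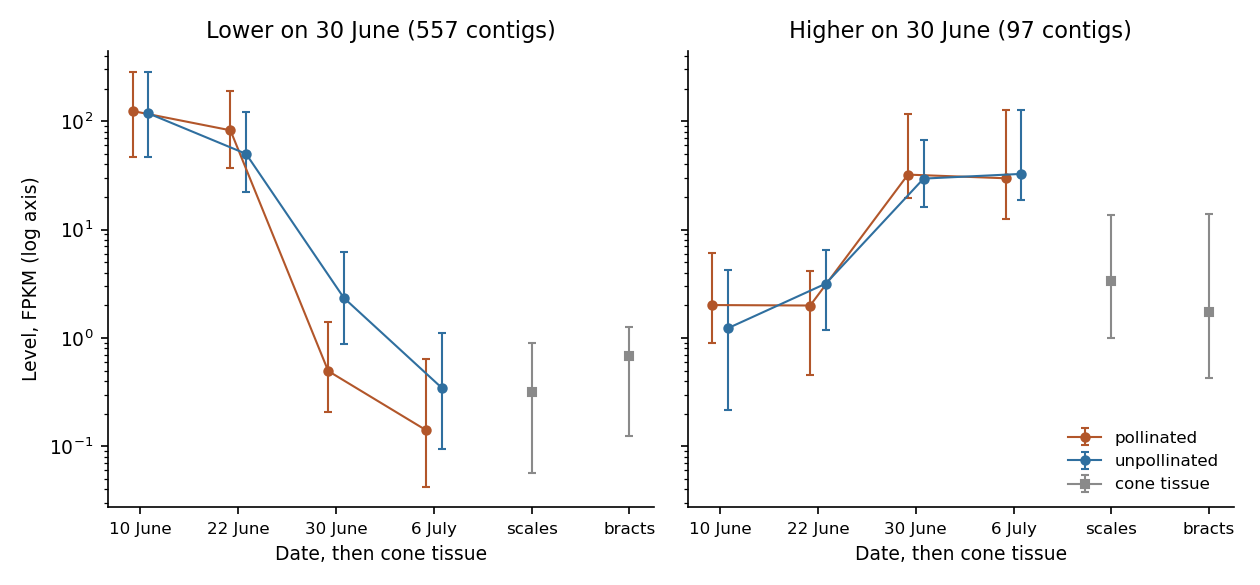
Median level in FPKM (log axis) of the 557 contigs lower and the 97 contigs higher on 30 June, in each megagametophyte library by date and in cone scales and bracts; points are medians over contigs and bars run from the lower to the upper quartile. On 30 June the lower contigs stand at 0.495 FPKM with and 2.34 FPKM without pollen, and the higher contigs stay near 30 FPKM on 6 July.

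The lower contigs were largely low in cone tissue. Scales and bracts are sporophyte tissue, and 1 library of each was at hand. Of the 557 lower contigs, 357 (64.1%) were under 1 FPKM in both, against 753 of all 9283 (8.11%). Read the other way, 357 of those 753 megagametophyte contigs without cone expression (47.4%) were 4-fold or more lower on 30 June, and 19 (2.52%) were higher. Of 6386 contigs at 10 FPKM or more in scales or bracts, 44 (0.689%) were lower and 35 (0.548%) higher. Level on 10 June, in libraries outside the comparison, added to this, though only within the 9283. Contigs abundant on 10 June but under 10 FPKM in a state on both later dates compared are not among these. Of 203 contigs of the 9283 that averaged 100 FPKM or more on 10 June and were under 1 FPKM in scales and bracts, 190 (93.6%) were 4-fold or more lower on 30 June in both states and 0 were higher. Their median change was -6.60 log2 units in pollinated and -4.34 in unpollinated megagametophytes. Of 438 contigs equally abundant on 10 June but at 10 FPKM or more in scales or bracts, 18 (4.11%) were lower, and the median change was -0.01 in pollinated and 0.08 in unpollinated megagametophytes. Among the 100 contigs with the highest mean on 10 June, 66 were in the lower group and 1 in the higher group. The higher contigs were less set apart from cone tissue, with 19 of 97 (19.6%) under 1 FPKM in scales and bracts and 35 (36.1%) at 10 FPKM or more in either.

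Lower contigs often carried neighbouring numbers in the assembly. Contigs of 1 gene, or of related genes, can be numbered one after the other, and the table does not say which are related. Of the 557 lower contigs, 232 had a neighbour in number among the 9283, and for 155 of them (66.8%) such a neighbour was lower too. The same held for 254 of the 2992 contigs of any kind with a neighbour (8.49%). A neighbour that was higher was found for 1 of the 232. Of the 97 higher contigs, 38 had such a neighbour, and for 10 (26.3%) it was higher too, against 44 of the 2992 (1.47%). How many genes the 557 contigs represent was not tested, nor was the sharing of reads between contigs.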

How the data were processed

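The authors deposited 1 table of log2 values for 54889 contigs and 10 libraries, taken as log2(FPKM + 1). No source used here states the logarithm's base or offset, and all FPKM levels rest on this reading. Values run from 0.01 to 12.28, and every contig reaches at least 1.01 in some library. Tools listed in the submitters' processing notes, with no roles, were RSEM 1.2.12, Bowtie 1.0.1, Trim Galore 0.2, FastQC 0.10, R 3.1.0 and bedtools 2.17. Libraries were polyA-selected and not strand-specific, per the labels' protocols.

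Libraries were grouped by date and pollination state from their titles. Date was tested with limma 3.58.1 in R 4.3.3 (eBayes with trend, pseudocount 1 FPKM, prior degrees of freedom 2.7) on contigs that averaged at least 1 FPKM in the 4 libraries. The threshold was a Benjamini-Hochberg adjusted p under 0.05. The naming rule took the largest fitted differences among passing contigs and the largest changes in 1 state alone. The model was tested on simulated data. Summaries used Python 3.11.15, numpy 2.4.6, pandas 2.3.3 and matplotlib 3.10.9. The libraries compared, the sets and the tests were chosen with earlier results of these data known. The labels do not say that libraries of a date are replicates. The p-values of the paired fit rest on the disagreement between pollination states, moderated over all contigs tested. They do not measure spread between replicates.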

Additional observations from a re-analysis of the deposited data

Results flagged for a closer look

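In only 15 of the 9283 contigs the pollination states moved 4-fold or more in opposite directions. The difference was not tested because each state has 1 library per date. There were 4 contigs higher on 30 June in pollinated and lower in unpollinated megagametophytes, and 11 with the reverse. The 4 were GAZW02040934, GAZW02041677, GAZW02060911 and GAZW02075775, named after their values were seen. GAZW02041677 stood at 11.8 FPKM on 30 June against 0.0497 FPKM on 22 June in pollinated megagametophytes, and at 0.0281 against 12.4 FPKM in unpollinated ones. The contigs numbered on either side of it were among the 11. GAZW02041676 stood at 0.329 against 14.1 FPKM in pollinated and 12.6 against 0.0570 FPKM in unpollinated megagametophytes on the same dates, and GAZW02041678 at 0.526 against 16.6 FPKM and 13.03 against 0.157 FPKM. The sum of these 3 contigs was 12.7 FPKM on 30 June against 30.8 FPKM on 22 June in pollinated megagametophytes, and 25.7 against 12.6 FPKM in unpollinated ones, so it still moved in opposite directions. GAZW02060911 and GAZW02060912 also moved oppositely within each state, and their sum was 16.8 against 13.8 FPKM in pollinated and 12.5 against 14.2 FPKM in unpollinated megagametophytes. How the authors' counting divided reads between related contigs was not tested.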

How the results depend on the processing

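The count of contigs that passed the paired limma test was 0 in the paired fit and under every other setting tried, with 3 exceptions. It was 394 (54 higher, 340 lower) with a pseudocount of 5 FPKM, 1572 (553 higher, 1019 lower) without the pair as a block, and 2518 (1054 higher, 1464 lower) with the error of all 8 megagametophyte libraries. Leaving out each library in turn, without pollination state in the model, gave a lowest count of 0 and a highest of 0. The 4 contigs named for the largest fitted differences kept their sign under every alternative, which their choice by size made likely.

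The counts by the 4-fold rule were 557 lower and 97 higher, of 9283 contigs. Of the same 9283 they were 839 and 418 at 2-fold, and 580 and 114 with a pseudocount of 0.1 FPKM. A minimum of 1 FPKM gave 817 and 200, of a much larger base of 24560 contigs. After quantile normalization they were 569 and 92 of 9259. Of the alternatives chosen after seeing the data, the natural logarithm gave 987 and 397 of 14756 contigs. Equal medians gave 591 and 79 of 9220. Lower contigs outnumbered higher ones in each of these. The contigs 4-fold apart in 1 state alone numbered 74, 56, 49 and 16 (pollinated higher and lower, unpollinated higher and lower). With under 2-fold in the other state the first, second and last were 126, 111 and 27. With a minimum of 1 FPKM, which admits more contigs, all 4 were 282, 212, 143 and 98.

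The descriptions of changed contigs had been planned for those passing the test, and as none passed they rest on the 4-fold rule. At 2-fold, chosen after seeing the data, the lower contigs held 1.17% and 2.03% of FPKM on 30 June in pollinated and unpollinated megagametophytes, against 21.5% and 16.3% on 22 June. The higher contigs held 7.36% and 5.5% on 30 June, against 1.34% and 1.69% on 22 June. The choice by size fixed the direction of these shares too. From 10 June to 6 July, 87.7% of the lower and 89.0% of the higher contigs moved the same way, and 58.5% and 39.0% had a neighbour in the same direction. Reads per library are unknown, so counting error limits low values to an unknown extent.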
